A study of Mus musculus with 4 samples.

Results

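The imprinted genes examined here have known parts in fetal and placental growth. They were *H19*, *Igf2*, *Peg10*, *Peg3*, *Plagl1*, *Mest*, *Cdkn1c*, *Dlk1*, *Meg3* and *Igf2r*, which are 10 of the 25239 gene symbols counted in each library, and the group was chosen by the lower counts of *H19* and *Peg10* in the libraries labelled CD4/ALK4-KO. Differences between the genotypes in these 10 genes are therefore given as a description, without a test. RNA-Seq had been run on 4 libraries from CD4+ T cells, which were separated from the leukocytes of lung tumors in C57BL/6 mice, with 2 labelled WT and 2 labelled CD4/ALK4-KO. CD4/ALK4-KO mice carried CD4CreERT2+/-/Acvr1bfl/fl, in which tamoxifen activates a Cre recombinase made under the *Cd4* promoter and deletes *Acvr1b*, the gene of the activin receptor ALK4, whereas WT mice had no label of an altered allele. The study used male mice of 8 to 10 weeks and gave tamoxifen at 75 mg/kg in each of 5 doses; whether WT mice also received it is not given in the sources used here. All mice had been given LLC-OVA, that is Lewis lung carcinoma cells that make ovalbumin, into a vein, and per the labels the lung tumors were taken after 18 to 22 days, whereas the methods of the study give an earlier range for this experiment. Whether a library came from a single mouse or from pooled mice is likewise not given, so p-values measure the spread between these libraries, which may be partly technical.

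Imprinted genes are transcribed mainly from the copy inherited from a single parent, because DNA methylation set in the egg or the sperm marks control regions that are kept after fertilization. Several of them set fetal growth in opposite directions. The paternally expressed *Igf2* encodes a fetal growth factor, and the maternally expressed *Igf2r* encodes the receptor that takes IGF2 up for degradation. Many are silenced in tissues after birth, and tumor cells often express them again. Of the 10 genes, *H19*, *Cdkn1c*, *Meg3* and *Igf2r* are known as maternally expressed and the other 6 as paternally expressed in the mouse. The deposited counts hold no allele information, so the parental origin of the reads was not analysed here.

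The 2 genes that chose the group lie in different imprinted clusters. *H19* (ENSMUSG00000000031.16, GENCODE M21 on GRCm38) is a long noncoding RNA gene on chromosome 7 at 142575529-142578143 on the minus strand, with *Igf2* on the same strand 72622 bp away. Its exons also hold the hairpin of the microRNA miR-675, which was listed at 0 counts in all 4 libraries, where up to 3 counts per library cannot be told from 0 by counting error alone. A read across the hairpin also lies within *H19*, and the libraries were not made for small RNAs, so these counts give no measure of the microRNA. The mature sequences of RefSeq (GRCm38.p6) are shown because they are the known small RNA products of *H19*, with the seed, bases 2 to 8, in capitals.
miR-675-5p: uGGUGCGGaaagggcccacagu
miR-675-3p: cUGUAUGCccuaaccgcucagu
RefSeq placed 9 mature microRNAs inside 4 of the genes, *H19*, *Igf2*, *Mest* and *Meg3*, and none of them shared a seed with another.

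*Plagl1* and *Meg3* were the genes of the group whose levels were higher in CD4/ALK4-KO without overlap between the genotypes. A RefSeq promoter window of each, from 250 bases before to 50 after the transcription start, is shown because it held the hexamer TGCCGC. The match lay on the strand opposite to the gene, so the letters shown read GCGGCA. The second *Meg3* window did not hold TGCCGC on either strand and is not shown. The methylated form of this hexamer is the known binding sequence of ZFP57, a zinc finger protein that keeps imprints. Capitals mark GCGGCA and, in *Meg3*, the letters TTTATATAAA, in which TATAAA occurs on both strands with an overlap. The *Plagl1* window lay on the plus strand at chr10:13090582-13090881 and the *Meg3* window on the plus strand at chr12:109540746-109541045.
Plagl1: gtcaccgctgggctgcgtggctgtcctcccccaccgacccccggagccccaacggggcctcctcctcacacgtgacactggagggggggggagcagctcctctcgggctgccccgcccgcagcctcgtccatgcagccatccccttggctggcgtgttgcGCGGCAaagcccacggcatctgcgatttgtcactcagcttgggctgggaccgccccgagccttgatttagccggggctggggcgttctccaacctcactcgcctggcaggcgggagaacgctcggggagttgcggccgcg
Meg3: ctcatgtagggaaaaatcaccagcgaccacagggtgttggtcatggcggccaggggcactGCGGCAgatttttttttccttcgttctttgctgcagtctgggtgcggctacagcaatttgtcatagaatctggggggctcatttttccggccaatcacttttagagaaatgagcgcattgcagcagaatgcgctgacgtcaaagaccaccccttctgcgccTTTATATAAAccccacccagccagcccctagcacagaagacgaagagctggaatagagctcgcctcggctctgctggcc
Among all 32851 windows of this length, 11.6% held TGCCGC on either strand, and of the 13 windows of the 7 genes that matched the table, 5 did, in *Igf2*, *Plagl1*, *Mest* and *Meg3*. Windows of *Mest* overlap, so these 5 are not 5 separate sequences. The palindrome GGGGCCCC, a known binding sequence of PLAGL1 itself, was in the *Peg3* window and in 1.08% of all windows. TATAAA was found in the *Meg3* window shown and in 13.6% of all windows. The CpG count of the windows of the group ran from 1 in the second *Meg3* window to 34 in that of *Igf2r*, against a median of 7 over all windows. A match in these letters is a description of sequence, and methylation and binding were not analysed here.

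The total counts were 13869889 and 13943237 in the WT libraries and 11959487 and 11823908 in the CD4/ALK4-KO libraries. *Acvr1b*, the targeted gene, had 426 and 342 counts against 322 and 445, so it did not separate the labelled genotypes (edgeR's quasi-likelihood test, adjusted p = 0.657). Therefore the names WT and CD4/ALK4-KO stand for the labels throughout. The counts were scaled to CPM, which divides by the library size after its adjustment with the TMM method of edgeR. On this scale the 12 genes of a T cell identity list summed to 427 to 480 CPM in the WT libraries. In the CD4/ALK4-KO libraries they summed to 2454 to 2496 CPM. All 12 were higher there at an adjusted p under 0.05 (edgeR), against 17.4% of all genes tested. Genes of other cells were present beside the T cell genes. The 6 macrophage genes summed to 5178 to 6578 CPM over all 4 libraries, and the 8 fibroblast genes to 5159 to 5467 CPM in WT against 2993 to 3237 CPM in CD4/ALK4-KO. No gene of these 3 lists was at 0, so the libraries held RNA of more than T cells. In such bulk RNA, fewer cells of a type and less RNA per cell cannot be told apart.

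*H19* was the most abundant of the 10 genes in WT, and *Igf2r* was in CD4/ALK4-KO. Levels of different genes were compared as CPM per kb of the gene's exons, since a longer gene collects more reads. In WT, *H19* stood at 37.8 ± 13.9 CPM per kb (SD, n = 2) and *Igf2r* at 16.4 ± 0.0337 CPM per kb. *Peg10* (2.22 ± 0.542) and *Cdkn1c* (1.98 ± 0.0692) followed and did not differ beyond their spread. *Peg3* (0.991 ± 0.984) and *Mest* (0.819 ± 0.0339) came next, again within the spread of *Peg3*. *Plagl1* (0.150 ± 0.0147) and *Meg3* (0.140 ± 0.0271) also lay within their spread of each other, and *Dlk1* (0.0714 ± 0.00852) and *Igf2* (0.0580 ± 0.0641) were at the bottom. In CD4/ALK4-KO the order was *Igf2r* (17.9 ± 4.77), *H19* (7.30 ± 1.64), *Cdkn1c* (1.44 ± 0.409) and *Mest* (0.536 ± 0.236), with *Peg3* (0.474 ± 0.215), *Peg10* (0.474 ± 0.206) and *Plagl1* (0.459 ± 0.0193) close together. *Meg3* (0.315 ± 0.00476), *Igf2* (0.116 ± 0.0641) and *Dlk1* (0.0363 ± 0.00937) had the lowest levels.

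**Figure D1:**
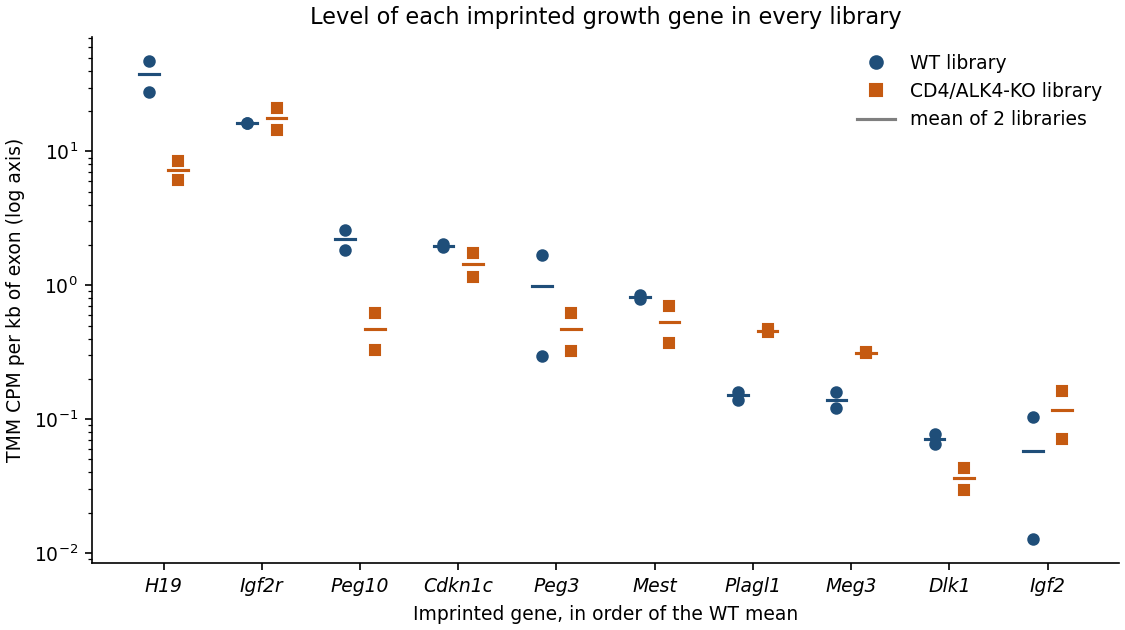
TMM CPM per kb of exon (log axis) of the 10 imprinted genes, in order of the WT mean, with a circle for each WT library, a square for each CD4/ALK4-KO library and a line at the mean of 2 libraries. The means of *H19* were 37.8 in WT and 7.30 in CD4/ALK4-KO, those of *Peg10* 2.22 and 0.474, and those of *Igf2r* 16.4 and 17.9.

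Of the 10 genes, 8 passed the filter on low counts, and *Igf2* and *Dlk1* did not. The libraries of the 2 genotypes did not overlap for 7 of the 10 genes, with 5 lower and 2 higher in CD4/ALK4-KO. Among all 13919 genes tested, 34.0% were lower without overlap and 32.7% were higher without overlap, so separation of this kind was common and nothing is read from the count. The genes of the group did not move together. On the log2 scale they ran from -2.37 to 1.60, against a median of -0.0082 and quartiles of -0.48 and 0.52 over all genes tested.

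*H19* RNA is known to restrain fetal growth, in part through miR-675. It had 1606 and 931 counts in WT and 180 and 257 counts in CD4/ALK4-KO. In CPM these were 117 and 68.8 against 15.1 and 20.8, so that the lower WT library stood well above the higher CD4/ALK4-KO library. The means were 93.0 ± 34.2 and 18.0 ± 4.03 CPM (SD, n = 2), a difference of 5.18-fold. The fitted log2 fold change was -2.37 (standard error 0.27), and 94 of the 13919 genes, or 0.675%, had a lower value. With WT replicate 2 left out it was -2.71, and with WT replicate 1 left out it was -1.94, the ends of the range over the 4 libraries.

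*Peg10* encodes a protein derived from a retrotransposon that the placenta needs to form. The gene lies on chromosome 6 at 4747306-4760517 on the plus strand. It had 168 and 235 counts in WT and 26 and 51 in CD4/ALK4-KO, or 12.3 and 17.4 against 2.18 and 4.13 CPM. The genotypes did not overlap, and the means of 14.8 ± 3.62 and 3.16 ± 1.38 CPM differed by 4.69-fold. The log2 fold change was -2.22 (standard error 0.36), with 0.877% of the genes below it. It was -2.76 with CD4/ALK4-KO replicate 2 left out and -1.81 with replicate 1 of that genotype left out.

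Within a genotype *H19* and *Peg10* did not always deviate the same way. *H19* was 1.70 times higher in WT replicate 1 than in WT replicate 2, whereas *Peg10* was 1.42 times higher in WT replicate 2. Both were higher in CD4/ALK4-KO replicate 2 than in replicate 1, by 1.38 and 1.89 times. Profiles over the 4 libraries were compared by the root mean square difference of the centred log2 values, which was 0.47 between *H19* and *Peg10*. Among 12856 other genes, each averaging 20 counts or more, the profiles nearest to *H19* were those of *Tmem200b* (0.093), *Wdr54* (0.16) and *Angpt2* (0.17). *Tmem200b* had 157 and 85 counts in WT against 10 and 18 in CD4/ALK4-KO. Nearest to *Peg10* were *Tenm4* (0.13), *Shox2* (0.14) and *Apod* (0.15), of which *Tenm4* had 520 and 663 counts in WT against 107 and 179. With 4 libraries these distances rank profiles and have no error.

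Some genes of tumor and stromal cells were also lower in the CD4/ALK4-KO libraries. *Rhox5*, a homeobox gene often active in mouse tumor cells, was at 285 and 304 CPM in WT and at 35.7 and 42.4 CPM in CD4/ALK4-KO (log2 fold change -2.91, adjusted p = 2.5e-08, edgeR). *Plac1*, a gene of the placenta that tumors also express, was at 33.3 and 58.0 against 6.38 and 7.86 CPM (log2 fold change -2.68, adjusted p = 5.08e-07, edgeR). These are part of a list of 7 tumor and epithelial genes that summed to 762 to 767 CPM in WT and 283 to 297 CPM in CD4/ALK4-KO. Of the list 4 genes were lower. *Epcam* and *Cdh1*, which encode epithelial adhesion proteins, were higher on the TMM scale. On a scale set by 7 T cell genes they were at -0.060 and -0.60, above the median gene of that scale (-2.39). Of the 8 fibroblast genes 5 were lower and 3 did not pass the threshold, with a median log2 fold change of -0.83. Among all genes tested 15.4% were lower and 17.4% higher. No gene of either list was at 0. The part of these cells in the lower *H19* and *Peg10* was not tested.

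**Figure D2:**
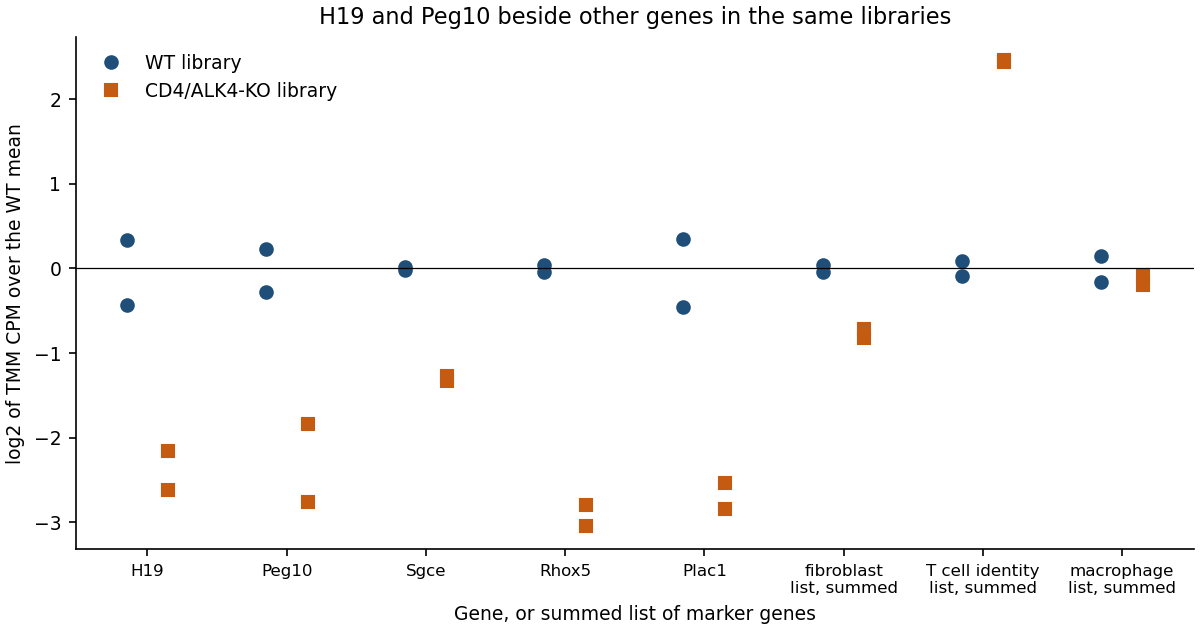
Level of each gene or summed marker list in each library, as the log2 of its TMM CPM over the mean of the 2 WT libraries, with circles for WT and squares for CD4/ALK4-KO. *H19* lay at -2.62 and -2.16 and *Peg10* at -2.76 and -1.84 in CD4/ALK4-KO, between the fibroblast genes (-0.71 and -0.83) and *Rhox5* (-3.04 and -2.80), while T cell identity genes lay at 2.46 and 2.44. *Rhox5* and *Plac1* were picked from the tumor and epithelial list after their values were seen. *Epcam* and *Cdh1* of that list, not shown, were higher (log2 fold change 2.31 and 1.77).

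*Igf2* and *Dlk1*, both paternally expressed, had the fewest counts of the group. *Igf2* had 1 and 8 counts in WT and 11 and 5 in CD4/ALK4-KO, which overlap and allow no statement on a difference. Its neighbor *H19* had the higher level per kb in all 4 libraries, and no ratio is given because a single *Igf2* count sets it in WT replicate 1. *Dlk1*, which encodes a membrane protein that holds back the maturation of fat and other precursor cells, had 6 and 5 counts against 2 and 3. The genotypes did not overlap, but counts this low do not show a difference.

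*Peg3* (chromosome 7, 6703892-6730431, minus strand) encodes a zinc finger protein whose loss reduces growth in mice. It had 54 and 304 counts in WT and 51 and 103 in CD4/ALK4-KO. WT replicate 2 alone was high, at 22.5 CPM against 3.94, 4.28 and 8.34 CPM in the other libraries, and the genotypes overlapped. The WT libraries differed by 5.70-fold, more than for any other of the 8 genes that passed the filter. The log2 fold change of -1.06 (standard error 1.11) became 0.67 without WT replicate 2 and -1.83 without WT replicate 1, so its direction rested on a single library. *Usp29*, which starts 146 bp from *Peg3* on the opposite strand, had 4 and 2 against 0 and 1 counts, and *Zim1* had a single count in all libraries together.

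*Mest* (chromosome 6, 30723547-30748465, plus strand), a hydrolase-like gene known for its part in fetal growth and fat cell size, had 43 and 45 counts in WT and 33 and 18 in CD4/ALK4-KO. The WT libraries were both higher, at 3.14 and 3.33 CPM against 2.77 and 1.46 CPM. However, the gap between the genotypes was smaller than the distance between the CD4/ALK4-KO libraries. The log2 fold change of -0.61 (standard error 0.50) was -1.11 without CD4/ALK4-KO replicate 1 and -0.23 when replicate 2 of that genotype was left out instead. *Copg2* overlaps 912 bp of the *Mest* exons on the opposite strand, which is 23.1% of their length, and had 901 to 1466 counts. The library kit does not mark strand, so reads of the overlap cannot be assigned to either gene.

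*Plagl1* (chromosome 10, 13060504-13131694, plus strand) encodes a zinc finger transcription factor that is known to act on other imprinted genes. It had 15 and 17 counts in WT and 44 and 43 in CD4/ALK4-KO, or 1.09 and 1.26 against 3.70 and 3.48 CPM. Both CD4/ALK4-KO libraries lay above both WT libraries, by 3.05-fold in the means, and the log2 fold change was 1.60 (standard error 0.52). It was at most 1.70 and moved by less than its standard error with any library left out.

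The other maternally expressed genes differed in direction, with *Meg3* higher in CD4/ALK4-KO. *Cdkn1c* (chromosome 7, 143458339-143461050, minus strand), which encodes the cell cycle inhibitor p57, had 54 and 56 counts in WT and 42 and 29 in CD4/ALK4-KO. In CPM the genotypes did not overlap (3.94 and 4.14 against 3.53 and 2.35), but the gap between them was smaller than the distance between the CD4/ALK4-KO libraries. The log2 fold change of -0.46 (standard error 0.45) was -0.75 without CD4/ALK4-KO replicate 1 and -0.20 when replicate 2 of that genotype was left out instead.

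*Meg3* (chromosome 12, 109541001-109571726, plus strand), a long noncoding RNA that starts 77664 bp from *Dlk1* and is often lost in tumors, had 30 and 39 counts in WT and 67 and 71 in CD4/ALK4-KO. These were 2.19 and 2.88 against 5.63 and 5.75 CPM, without overlap and 2.24-fold apart in the means. The log2 fold change was 1.16 (standard error 0.42) and ran from 0.97 to 1.37 with each library left out. *Rian*, a further noncoding RNA 32213 bp downstream on the same strand, had 264 and 461 counts against 558 and 265, which overlap, and its log2 fold change was 0.36 (edgeR, adjusted p = 0.51). Without CD4/ALK4-KO replicate 2 *Rian* was at 0.81 and past the threshold, and with the other library of that genotype left out it was at -0.28.

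*Igf2r* (chromosome 17, 12682406-12769664, minus strand) did not separate the genotypes. It had 2090 and 2057 counts in WT and 1606 and 2441 in CD4/ALK4-KO, or 153 and 152 against 135 and 198 CPM, so that the WT libraries lay between the CD4/ALK4-KO libraries. Its log2 fold change was 0.13 (standard error 0.22), and it moved to 0.41 or -0.18 when CD4/ALK4-KO replicate 1 or 2, respectively, was left out. *Airn*, the noncoding RNA that silences paternal *Igf2r* in the mouse, runs through the gene on the opposite strand. *Airn* had 122 and 88 counts in WT and 31 and 41 in CD4/ALK4-KO, which gave a log2 fold change of -1.38 ± 0.39 (SE, edgeR, adjusted p = 0.00873). It was at -1.14 and no longer past the threshold without WT replicate 1. The exons of *Airn* and *Igf2r* shared no base in GENCODE M21, but strand was not marked, so reads of unspliced *Igf2r* could be counted for *Airn*.

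**Figure D3:**
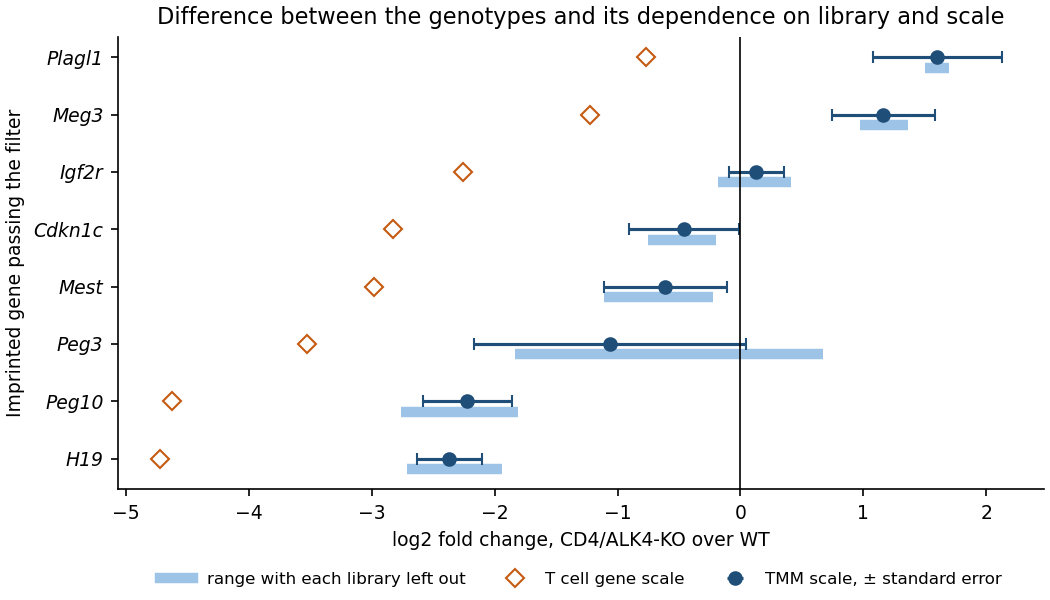
log2 fold change of CD4/ALK4-KO over WT for the 8 genes that passed the filter, with circles and standard errors on the TMM scale, bars for the range with each library left out, and diamonds on a scale set by 7 T cell genes. *H19* (-2.37) and *Peg10* (-2.22) lay lowest, *Meg3* (1.16) and *Plagl1* (1.60) highest, and all 8 diamonds were below 0.

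The scale bears on every log2 fold change given above and on the direction of some. Where libraries were scaled to 7 T cell genes (*Cd3d*, *Cd3e*, *Cd3g*, *Cd247*, *Cd2*, *Cd5* and *Cd6*) in place of TMM, all genes shifted by a median of -2.38 on the log2 scale. There *H19* was at -4.72 and *Peg10* at -4.63, while *Plagl1* (-0.77), *Meg3* (-1.22) and *Igf2r* (-2.26) turned below 0. Relative to the median gene of that fit, *H19* was at -2.34 and *Plagl1* at 1.62, and the 8 genes kept their order from *H19* to *Plagl1*.

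Other imprinted genes were tested across all genes, since the group was not chosen on them. Of 70 such genes, many of which are imprinted only in the placenta or the brain, 68 were listed, 42 passed the filter and 9 were at 0 in all libraries. At an adjusted p under 0.05, 7 were higher and 7 lower in CD4/ALK4-KO, or 16.7% each, against 17.4% higher and 15.4% lower among all genes tested. The median log2 fold change was 0.014, and 28 genes did not pass the threshold. *Nap1l5*, among the higher genes, reached 10 counts only in CD4/ALK4-KO libraries and so passed the filter through CD4/ALK4-KO alone. When at least 10 counts were needed in every library, 6 of 37 genes tested were higher and 8 lower.

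The next gene to *Peg10* was among those that fell. *Sgce*, which encodes the membrane protein epsilon-sarcoglycan, starts 98 bp from *Peg10* on the opposite strand, and the pair are known to share a promoter region expressed from the paternal copy. *Sgce* had 644 and 653 counts in WT and 235 and 234 in CD4/ALK4-KO, or means of 47.6 ± 0.905 against 19.3 ± 0.558 CPM (SD, n = 2). The replicates were almost equal, and the log2 fold change was -1.30 ± 0.23 (SE, edgeR, adjusted p = 0.000169). Of the other genes near *Peg10* that were chosen to be named, *Ppp1r9a* was at 0.65, *Asb4* at -0.088 and *Tfpi2* at -0.10. None of these passed the threshold, and *Tfpi2* was at -0.78 without CD4/ALK4-KO replicate 1. That choice left out *Pon2* (-0.12, not past the threshold) and *Pon3* (-0.85, lower). Among neighbors of the other genes, *Copg2* was at -0.29 and *Kcnq1ot1*, the noncoding RNA of the *Cdkn1c* domain, at 0.73, neither past the threshold. *Phlda2*, *Rtl1*, *Mirg*, *Usp29*, *Zim1* and *Igf2os* had at most 9 counts in any library, and *Nctc1* and *Ins2* had none.

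The largest fall among the other imprinted genes was that of *Slc38a4*, an amino acid transporter of the placenta, with 3112 and 4532 counts in WT and 1074 and 954 in CD4/ALK4-KO (log2 fold change -1.75, adjusted p = 7.05e-06, edgeR). *Commd1* (-0.91), *Pon3* (-0.85), *Dcn* (-0.69) and *Cd81* (-0.58) were also lower, and *Dcn* encodes decorin, a matrix protein of fibroblasts. *Dcn* was at -0.45 and no longer past the threshold without WT replicate 2, and *Cd81* and *Pon3* were not past it when either WT library was left out. *Herc3* (2.03), *Tspan32* (1.91), *Sfmbt2* (1.86), *Phactr2* (1.51), *Peg13* (1.15) and *Atp10a* (0.84) rose on the TMM scale, as did *Nap1l5* (2.64) with 3 and 2 against 17 and 12 counts. *Nap1l5* was not past the threshold with DESeq2's Wald test, on the T cell gene scale (0.34), or when any library except CD4/ALK4-KO replicate 2 was left out. On the T cell gene scale *Herc3* (-0.36), *Tspan32* (-0.46), *Sfmbt2* (-0.52), *Phactr2* (-0.89), *Peg13* (-1.24) and *Atp10a* (-1.54) were below 0. *Atp10a* also was not past the threshold when either WT library was left out.

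**Figure D4:**
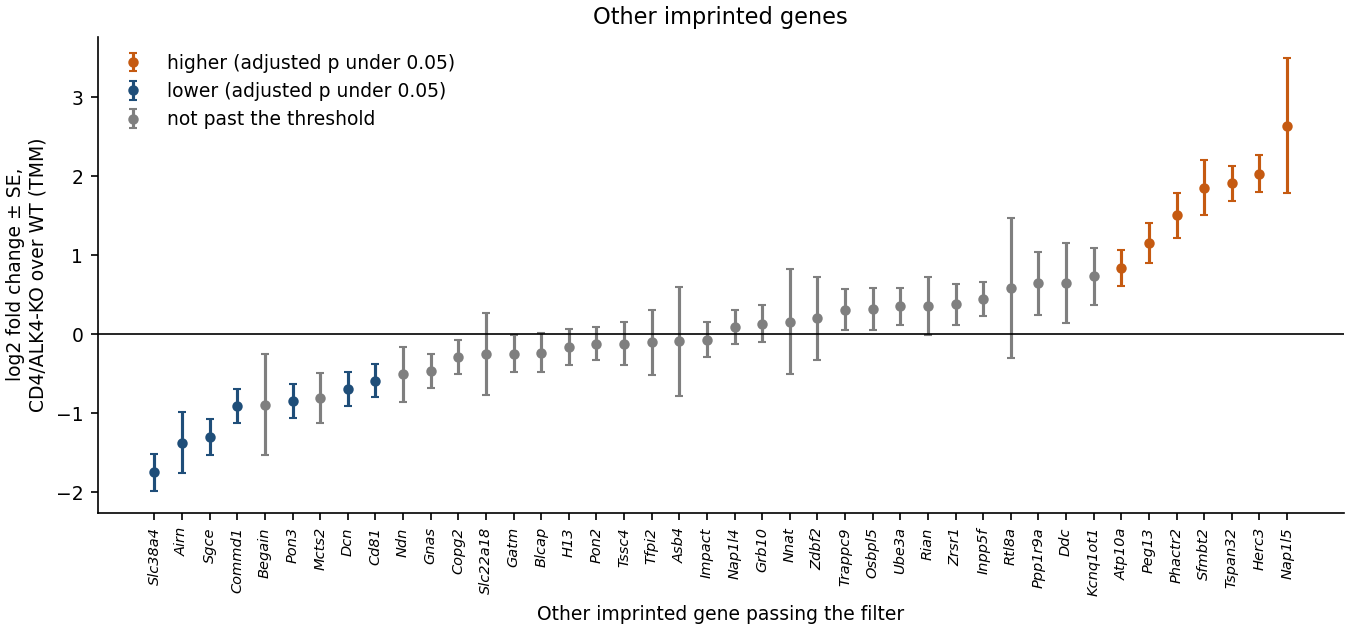
log2 fold change ± standard error of CD4/ALK4-KO over WT on the TMM scale for the 42 other imprinted genes that passed the filter, in order of the value and colored by the call at an adjusted p under 0.05. The 7 lower genes reach -1.75 at *Slc38a4*, the 7 higher genes 2.64 at *Nap1l5*, and 28 genes were not past the threshold. *Nap1l5* passed the filter through CD4/ALK4-KO alone.

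Around *Igf2* and *Igf2r*, 20 genes of the insulin-like growth factor axis were examined, of which 18 passed the filter. In CD4/ALK4-KO 6 were lower (33.3%, against 15.4% of all genes tested) and 1 was higher (5.56%, against 17.4%). The median log2 fold change was -0.19. *Igf2bp2*, which encodes a protein that binds *Igf2* mRNA, had 1319 and 940 counts in WT and 282 and 437 in CD4/ALK4-KO, which gave a log2 fold change of -1.49 ± 0.25 (SE, edgeR, adjusted p = 7.24e-05). *Htra1*, a protease that cleaves IGF-binding proteins, was at -1.52 and the binding protein genes *Igfbp6*, *Igfbp4* and *Igfbp7* at -1.02, -0.98 and -0.93. *Irs1*, an adaptor of the IGF1 receptor, was at -1.43, at -0.97 without CD4/ALK4-KO replicate 1 and -2.06 with the other library of that genotype left out. *Igfbp4*, *Igfbp6* and *Igfbp7* were not past the threshold without WT replicate 1. *Pappa*, which also cleaves a binding protein, rose by 0.96 on the TMM scale, was at -1.42 on the T cell gene scale and was not past the threshold when either WT library was left out. The receptor genes *Igf1r* (-0.13) and *Insr* (0.38) and the ligand gene *Igf1* (-0.19) did not pass the threshold.

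Of 11 genes of the fetal programme, 8 passed the filter. Of these 5 were lower (62.5%, against 15.4% of all genes tested) and 1 was higher (12.5%, against 17.4%). The median log2 fold change was -1.21. *Sox11* and *Lin28b*, both among the lower genes, reached 10 counts only in WT libraries and so passed the filter through WT alone. With at least 10 counts in every library, 3 of 5 genes tested were lower. *Hmga2*, a chromatin protein gene of fetal cells and tumors, had 3218 and 1998 counts in WT and 680 and 908 in CD4/ALK4-KO, which gave a log2 fold change of -1.55 ± 0.24 (SE, edgeR, adjusted p = 3.66e-05). *Hmga1* was at -1.82 and *Gpc3*, which encodes a membrane proteoglycan that restrains growth, at -0.88, and neither was past the threshold without WT replicate 1. *Lin28b*, a repressor of let-7 microRNAs, had 24 and 23 against 1 and 7 counts and was at -2.36. It was not past the threshold with DESeq2 or when either WT library or CD4/ALK4-KO replicate 1 was left out (-1.56), and it reached -4.22 when replicate 2 of that genotype was left out. *Sox11* had 20 and 36 counts in WT and none in CD4/ALK4-KO. The WT mean of 2.06 CPM was 8.32-fold above a limit of 3 counts per CD4/ALK4-KO library. The WT libraries were at 1.46 and 2.66 CPM, so this ratio is not a lower bound. *Afp*, the gene of alpha-fetoprotein, rose from 22 and 41 to 162 and 63 counts (log2 fold change 2.01, adjusted p = 0.00206, edgeR), and was at -0.38 on the T cell gene scale. It was at 1.17 when CD4/ALK4-KO replicate 1 was left out.

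Of 16 genes that set or keep imprints, 13 passed the filter. Of these 5 were higher (38.5%, against 17.4% of all genes tested) and 2 were lower (15.4%, the same as among all genes tested). *Ctcf*, whose protein binds the unmethylated control region between *Igf2* and *H19*, had 1034 and 1159 counts in WT and 2136 and 2032 in CD4/ALK4-KO, which gave a log2 fold change of 1.09 ± 0.21 (SE, edgeR, adjusted p = 4.0e-04) and of -1.29 on the T cell gene scale. The methyltransferase genes *Dnmt3b* (2.35) and *Dnmt3a* (0.75) and the chromatin genes *Zfp445* (0.72) and *Smchd1* (0.64) were also higher. On the T cell gene scale they were at -0.0046, -1.63, -1.67 and -1.75. *Dnmt3l* (-1.51) and *Uhrf1* (-0.85), a partner of the maintenance methyltransferase, were lower, and *Dnmt1* itself (0.44), *Zfp57* (-0.60) and *Trim28* (-0.39) did not pass the threshold. Without WT replicate 1 only *Ctcf* and *Dnmt3b* of the genes higher or lower here were still called, and *Dnmt3a*, *Zfp445*, *Smchd1* and *Dnmt3l* were also not past the threshold without WT replicate 2.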

How the data were processed

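RNA-Seq counts of 4 libraries were analysed, 2 labelled WT and 2 labelled CD4/ALK4-KO, grouped by their titles. The authors mapped 75 bp single-end reads with HISAT2 on mm10 and assigned them to genes with htseq-count (mode intersection-nonempty), and the deposited values are these counts, not normalized. Tool versions, annotation and strand setting are not given in the sources used here. Replicates differed by more than sampling noise (chi-square per degree of freedom 16.0 and 28.7). Over 13919 genes passing filterByExpr, edgeR 4.0.16 in R 4.3.3 gave TMM factors and a robust quasi-likelihood test of genotype, with Benjamini-Hochberg adjustment over all genes tested. A standard error is the size of the log2 fold change over the root of its F statistic. CPM used TMM-adjusted library sizes, and profiles log2(CPM + 0.5). Counts were simulated from the mean levels of these libraries, with the same spread between replicates for every gene (dispersion 0.0357). On them the test found 189 of 197 genes with a known 4-fold change, with 8 false calls, out of 13743 genes. Spread differs between genes in the data, so these numbers need not hold there. Gene positions and exon lengths are from GENCODE M21 (GRCm38, the assembly of mm10), and sequences from RefSeq (GRCm38.p6).

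The genes, the lists and the tests were chosen with earlier results of these data known. Text names all 10 genes, their listed neighbors with any count, up to 6 called genes per direction and list by mean count, and the 3 nearest profiles of *H19* and *Peg10*. *Nap1l5*, *Rhox5*, *Plac1*, *Epcam*, *Cdh1* and the uncalled genes of the lists were added after their values were seen. Marker lists of alveolar, endothelial, B cell and neutrophil genes were also counted. Of these, 3 of 6 alveolar and airway genes were lower. Higher were 1 of 6 endothelial genes, 5 of 5 B cell genes, 1 of 6 neutrophil genes and 1 of 6 macrophage genes. Over all genes tested the shares were 15.4% lower and 17.4% higher. The B cell list summed to 45.9 to 58.5 CPM in WT and to 152 to 303 CPM in CD4/ALK4-KO. Symbols of 2 listed imprinted genes had no match and were not analysed here. DESeq2 1.42.0 was run as an alternative.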

Additional observations from a re-analysis of the deposited data

How the results depend on the processing

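Counts of genes higher and lower in CD4/ALK4-KO, 2422 and 2140 over all genes, stayed within 1.5 times under DESeq2's size factors, its Wald test, upper quartile scaling, no filter and the likelihood ratio test. On the T cell gene scale 27 genes were higher and 13037 lower over all genes, 0 and 38 of the other imprinted genes, 0 and 18 of the IGF axis, 0 and 6 of the fetal programme and 0 and 12 of the imprint genes. There *Plagl1* (-0.77), *Meg3* (-1.22), *Tspan32* (-0.46), *Kcnq1ot1* (-1.67), *Ppp1r9a* (-1.76), *Herc3* (-0.36), *Atp10a* (-1.54), *Rian* (-2.04), *Sfmbt2* (-0.52), *Peg13* (-1.24), *Phactr2* (-0.89), *Pappa* (-1.42), *Afp* (-0.38), *Dnmt3a* (-1.63), *Dnmt3b* (-0.0046), *Zfp445* (-1.67), *Ctcf* (-1.29), *Smchd1* (-1.75), *Epcam* (-0.060) and *Cdh1* (-0.60) were below 0.

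With single libraries left out, the genes higher ran from 1103 to 2923 and those lower from 754 to 2618, both lowest without WT replicate 1 (1344 and 1047 without WT replicate 2). A lone library of a genotype is then assumed to vary like the other genotype. The ranges were 5 to 11 higher and 4 to 9 lower for the other imprinted genes, 0 to 2 and 3 to 8 for the IGF axis, 1 and 2 to 5 for the fetal programme, and 2 to 6 and 0 to 2 for the imprint genes. With at least 10 counts in every library 3 fetal programme genes were lower, since fewer genes were tested.

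With the replicate block 1768 genes were higher and 1444 lower, and of the imprint genes 2 rather than 5 were higher (*Dnmt3a*, *Zfp445* and *Smchd1* were not past the threshold); of the other genes named, *Cd81* and *Dcn* were not past it. Same-numbered libraries deviated in opposite directions over genes (correlation -0.24), so the numbers do not pair the libraries. The crossed pairing, added after the data were seen, called 3118 higher and 3037 lower genes.

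With the length of the longest transcript, the order of levels was the same for all 10 genes in WT and 8 of 10 in CD4/ALK4-KO. On the strand of the gene alone TGCCGC was in 0 windows rather than 5. Low counts limit *Igf2*, *Dlk1*, *Plagl1*, *Mest* and *Cdkn1c* most, and 2 libraries per genotype limit every value.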
